A study of Mus musculus with 6 samples.

Results

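The blood vessels of the mouse oviduct were followed through 10 genes, 5 that mark endothelial cells (Pecam1, Cdh5, Kdr, Cd34 and Vwf) and 5 that endothelium uses to catch leukocytes (Selp, Sele, Icam1, Vcam1 and Madcam1). They were picked by symbol for what they are known to do. All 10 were found, each on 1 of the 55483 rows of the deposited tables. RNA from whole oviducts of pregnant females aged 6 to 8 weeks, mated with fertile males, was sequenced on gestational day 3, with the day of the vaginal plug as day 1. There were 3 libraries labelled Mettl3 f/f and 3 labelled Mettl3 d/d. Mettl3 encodes the enzyme that places N6-methyladenosine on RNA. By common usage f/f denotes alleles with loxP sites and d/d their deleted form. The sources used here name no Cre driver, deleted exon or pooling of animals, so whether the endothelium itself carries the deletion is not known.

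Endothelial cells line vessels and decide where leukocytes leave the blood. Resting endothelium is held together by homophilic contacts of PECAM-1 and VE-cadherin. On activation it brings P-selectin to its surface from stores it shares with von Willebrand factor, and it transcribes E-selectin, ICAM-1 and VCAM-1, largely through NF-kappaB. Selectins let leukocytes roll, and ICAM-1 and VCAM-1 then bind leukocyte integrins so that the cells stop and cross. In whole tissue, fewer cells of a type and less RNA per cell cannot be told apart.

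The 5 identity genes did not share a direction. Pecam1, Cdh5 and Kdr had overlapping values in the 2 groups, while Vwf was 2.18-fold higher and Cd34 2.19-fold lower in the libraries labelled d/d. Among the adhesion genes, Selp was 3.06-fold and Vcam1 2.82-fold higher. Icam1 was higher in only part of the d/d libraries, and Sele and Madcam1 were barely detected in either group. Of the 8 members above a mean FPKM of 1, 3 rose and 1 fell by limma's test at a Benjamini-Hochberg adjusted p under 0.05. Over all 15438 features tested, 6.04% passed as higher and 4.97% as lower. The values of the 2 groups did not overlap for those 3 and that 1, against 18.1% (higher in d/d) and 17.4% (lower in d/d) of all features. FPKM, fragments scaled to transcript length and library size, is a level per length, so levels can be set side by side between genes.

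**Figure D1:**
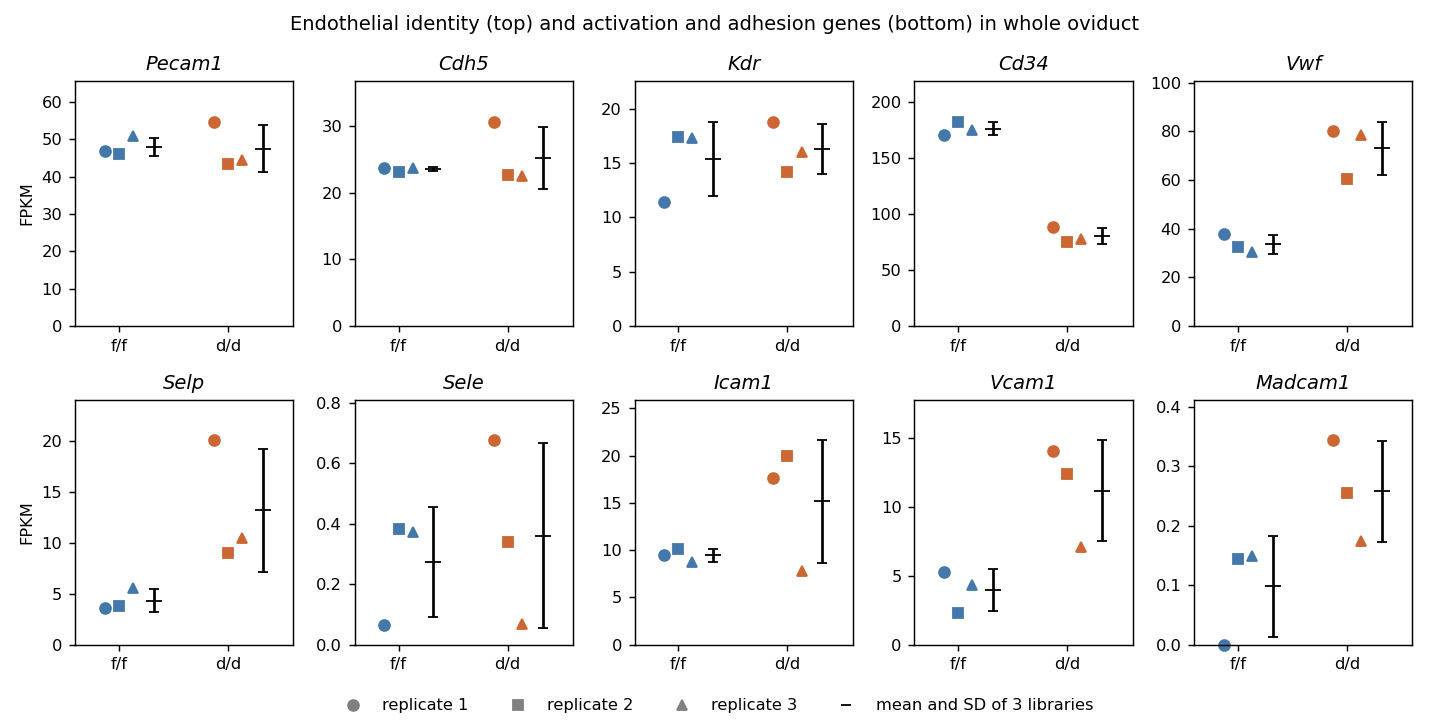
FPKM (y axis, linear, from 0) of each member in the 3 f/f and 3 d/d libraries, with symbols for the replicate number and a bar for the mean and SD of 3 libraries. Cd34, Vwf, Selp and Vcam1 separate the groups, while Pecam1, Cdh5 and Kdr do not.

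The FPKM steps implied 16600000 to 17800000 fragments per library, and 21085 to 22211 features had an FPKM above 0. The targeted gene Mettl3 was higher, not lower, under the d/d label. It was at 11.8, 12.1 and 13.2 FPKM in f/f, against 19.8, 20.3 and 24.5 in d/d. The exact permutation p was 0.1 (two-sided), the smallest that 3 against 3 allows. By limma Mettl3 rose by 0.75 on the log2 scale (adjusted p = 0.0145), and the call held in 13 of 15 alternative fits. A value per gene does not show a missing exon, so the genotype labels were not verified and each direction below rests on them. On the second principal component, with 22.3% of the variance, the extremes were f/f replicate 1 (41.4) and d/d replicate 1 (-30.3), and the calls of Vwf, Selp and Vcam1 are also given without both. Of 10 endothelial marker genes none was at 0. Their summed level was 395 to 456 FPKM over the f/f libraries, against 329 to 463 over the d/d ones. The list includes all identity members. Cd34 alone made up 176 of a mean sum of 424 FPKM in f/f, against 80.2 of 388 in d/d. Its fall was larger than that of the sum, so the sum is no measure of endothelium apart from Cd34. Mitochondrial transcripts took 3.61% to 5.70% of summed FPKM in f/f and 6.50% to 9.70% in d/d, with no overlap. A rescaling without them and very abundant features together is given below. The part of mitochondrial transcripts alone was not tested. The labels do not say that replicates were separate animals, so the p-values cover only sample-to-sample spread here, which may be technical.

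Pecam1 (ENSMUSG00000020717; chromosome 11, 106654217 to 106750628, minus strand of GRCm38) encodes the junctional adhesion molecule PECAM-1, or CD31. Library by library its FPKM stood at 46.9, 46.1 and 50.7 in f/f replicates 1, 2 and 3, against 54.6, 43.3 and 44.5 in the d/d ones. The d/d values lay on both sides of the f/f values. The means were 47.9 ± 2.49 and 47.5 ± 6.25 FPKM (n = 3 each, SD), a log2 change of -0.02 with a 95% interval from -0.30 to 0.26 (limma adjusted p = 0.928).

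Cdh5 (ENSMUSG00000031871; chromosome 8, 104101625 to 104144511, plus strand) encodes VE-cadherin, the cadherin of endothelial adherens junctions. Its FPKM was 23.7, 23.2 and 23.7 in f/f, against 30.7, 22.7 and 22.5 in d/d replicates 1 to 3. Only d/d replicate 1 stood above the f/f range, and the other two d/d libraries lay just below it. The log2 change was 0.09, with a 95% interval from -0.24 to 0.41 (limma adjusted p = 0.719).

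Kdr (ENSMUSG00000062960; chromosome 5, 75932827 to 75978458, minus strand) encodes the main signalling receptor for vascular endothelial growth factor A. It was at 11.5, 17.4 and 17.3 FPKM in f/f, against 18.7, 14.2 and 15.99 in d/d. The groups overlapped, with f/f replicate 1 the lowest library. The log2 change was 0.09, with a 95% interval from -0.36 to 0.54 (limma adjusted p = 0.782). A p that misses the threshold does not show that these 3 genes were equal in the 2 groups.

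Vwf (ENSMUSG00000001930; chromosome 6, 125546774 to 125686679, plus strand) encodes von Willebrand factor, which tethers platelets and is stored in endothelial Weibel-Palade bodies. It was at 37.9, 32.3 and 30.5 FPKM in f/f, against 80.1, 60.4 and 78.4 in d/d. All d/d libraries were above all f/f libraries. The means were 33.55 ± 3.84 and 72.97 ± 10.9 FPKM (n = 3 each, SD), and Vwf rose by 1.09 on the log2 scale (SE 0.15, limma adjusted p = 0.0102). The call missed the threshold once among the fits with 1 library left out, which was f/f replicate 2 (limma adjusted p = 0.0563, log2 change 1.07). Vwf changed places with Pecam1: it was below Pecam1 in each f/f library and above it in each d/d library.

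Megakaryocytes and platelets also carry Vwf and Selp. Of 6 platelet and megakaryocyte genes, 2 were above the filter and 0 passed, Treml1 was listed at 0 in all 6 libraries, and the summed level was 24.7 to 28.6 FPKM over the f/f libraries, against 18.2 to 54.7 over the d/d ones. Ppbp, Gp1ba and Gp9 were at 1.21 FPKM or less in every library, so the sum was mainly Pf4 and Itga2b. The platelet chemokine Pf4 was high in d/d replicate 1 alone (49.1 FPKM, against 12.4 and 15.6 in d/d replicates 2 and 3 and 13.9 to 18.5 in f/f), where Vwf and Selp were also at their highest. The other platelet gene above the filter, Itga2b, an integrin chain, was lowest in that same library (4.16 FPKM, against 5.25 and 8.76 in d/d replicates 2 and 3 and 7.50 to 11.7 in f/f). Without the 2 libraries numbered 1, the log2 change was 1.11 for Vwf (limma adjusted p = 0.0296) and 0.93 for Selp (0.0702). The part of platelet RNA in the changes of Vwf and Selp was not tested.

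Cd34 (ENSMUSG00000016494; chromosome 1, 194938819 to 194961279, plus strand) encodes a sialomucin of capillary endothelium that stromal fibroblasts and blood progenitors also carry. It was the most abundant member in both groups. Its FPKM was 171, 182 and 175 in f/f, against 88.1, 74.8 and 77.7 in d/d. Every d/d library was at about the same lower level, far below the f/f range. The means were 176 ± 5.84 and 80.2 ± 6.98 FPKM (n = 3 each, SD), and Cd34 fell by 1.13 on the log2 scale (SE 0.10, limma adjusted p = 0.00393). The call held without any single library (limma adjusted p from 0.00648 to 0.0336).

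Stromal markers did not move in 1 direction beside Cd34. Of 7 fibroblast genes, 1 rose (Lum, a matrix proteoglycan) and 1 fell (Pdgfra, a growth factor receptor of fibroblasts), and none was at 0. Pdgfra was at 44.6, 39.2 and 43.6 FPKM in f/f, against 19.8, 28.7 and 19.8 in d/d, with no overlap. Its call was lost where f/f replicate 2 (limma adjusted p = 0.0723) or 3 (0.0751), or else replicate 1 (0.0620) or 3 (0.0713) of d/d, was left out, and that of Lum without any library other than d/d replicate 1. The summed level of the list was 3029 to 3267 FPKM over the f/f libraries, against 2736 to 4183 over the d/d ones. The part of fibroblast RNA in the fall of Cd34 was not tested.

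**Figure D2:**
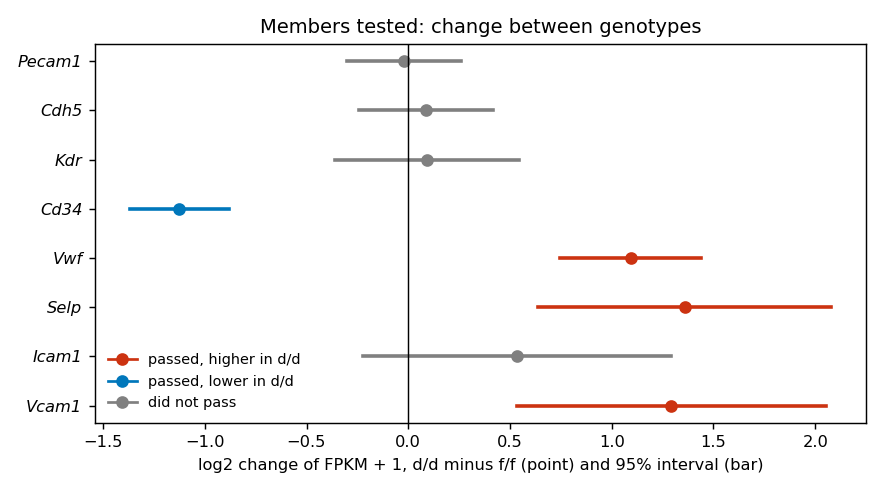
Log2 change of FPKM + 1 (x axis, d/d minus f/f, points) with its 95% interval (bars) for the 8 members tested; colours mark those that passed the test. The intervals of Pecam1, Cdh5, Kdr and Icam1 span 0, that of Cd34 lies below it and those of Vwf, Selp and Vcam1 lie above it.

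Selp (ENSMUSG00000026580; chromosome 1, 164115264 to 164150026, plus strand) encodes P-selectin, which starts leukocyte rolling and in mice is also induced at the transcript level. It was at 3.55, 3.78 and 5.56 FPKM in f/f, against 20.04, 8.99 and 10.4 in d/d. The groups did not overlap, and d/d replicate 1 stood well above the other two d/d libraries. The means were 4.30 ± 1.10 and 13.2 ± 6.00 FPKM (n = 3 each, SD), and Selp rose by 1.36 on the log2 scale (SE 0.30, limma adjusted p = 0.0373). The call was lost without any single library (log2 change 1.03 to 1.57, limma adjusted p from 0.0544 without d/d replicate 1 to 0.131 without f/f replicate 2), and with the mean filter removed (0.0762). Without the 2 libraries numbered 1 the log2 change was 0.93 (limma adjusted p = 0.0702).

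Vcam1 (ENSMUSG00000027962; chromosome 3, 116109949 to 116129688, minus strand) encodes VCAM-1, the ligand of the integrin that Itga4 and Itgb1 form, on activated endothelium and on some stromal cells and macrophages. It was at 5.28, 2.32 and 4.32 FPKM in f/f, against 14.1, 12.4 and 7.09 in d/d. All d/d libraries were above f/f, with d/d replicate 3 nearest to them. The means were 3.97 ± 1.51 and 11.2 ± 3.65 FPKM (n = 3 each, SD), and Vcam1 rose by 1.29 on the log2 scale (SE 0.32), close to the threshold (limma adjusted p = 0.0484). With f/f replicate 1 left out it passed (0.0492). It did not with any other library left out, at 0.137 for f/f replicate 2, 0.110 for f/f replicate 3 and 0.126, 0.135 and 0.0568 for d/d replicates 1, 2 and 3. It also missed it after rescaling without mitochondrial and very abundant features (0.0632), with no variance trend (0.0557), with no filter (0.0960) and without the 2 libraries numbered 1 (0.0964).

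Icam1 (ENSMUSG00000037405; chromosome 9, 21015985 to 21028817, plus strand) encodes ICAM-1, the ligand of the leukocyte integrins of Itgb2, found on endothelium, leukocytes and epithelium. Its FPKM was 9.44, 10.1 and 8.74 in f/f, against 17.6, 20.01 and 7.80 in d/d. In d/d replicates 1 and 2 the level was well above f/f, and in d/d replicate 3 it was below every f/f library. The log2 change was 0.53, with a 95% interval from -0.22 to 1.29 (limma adjusted p = 0.310). Without d/d replicate 3 it was 0.92 and passed (limma adjusted p = 0.0402).

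Sele (ENSMUSG00000026582; chromosome 1, 164048234 to 164057677, plus strand) encodes E-selectin, which endothelium makes on exposure to tumour necrosis factor or interleukin-1. It was at 0.0635, 0.381 and 0.374 FPKM in f/f, against 0.676, 0.339 and 0.0669 in d/d. These levels equal about 3 to 31 fragments per library, the groups overlapped, and no difference was detectable at this depth. Madcam1 (ENSMUSG00000020310; chromosome 10, 79664559 to 79668537, plus strand) encodes the vascular addressin for gut-homing lymphocytes, which bind it through the integrin of Itga4 and Itgb7. It was listed at 0 in f/f replicate 1, at 0.144 and 0.150 FPKM in f/f replicates 2 and 3 and at 0.343, 0.255 and 0.174 in d/d. The d/d values were the higher ones, but the largest of them equals about 7 fragments. Both genes were below the filter on the mean and were not tested.

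The order of levels in f/f ran Cd34, Pecam1, Vwf, Cdh5, Kdr, Icam1, Selp, Vcam1, Sele and Madcam1, and only the neighbours Selp and Vcam1, and Sele and Madcam1, had overlapping values. In d/d Vwf came second, its values overlapping those of Cd34, and the other neighbours with overlapping values were Kdr and Icam1, Icam1 and Selp, Selp and Vcam1, and Sele and Madcam1.

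Levels were also set against the mean log2 level of Pecam1, Cdh5 and Kdr in the same library. That mean was 4.62, 4.79 and 4.84 in f/f, against 5.03, 4.65 and 4.72 in d/d. Its group means differed by 0.05, so the step could change the group differences by no more than that. The 4 genes that passed did not overlap between the groups before this step, nor after it. Relative to that mean, Selp was at -2.43, -2.53 and -2.12 in f/f, against -0.63, -1.33 and -1.20 in d/d, a difference of 1.31 on the log2 scale. Vcam1 was at -1.97, -3.05 and -2.43 in f/f, against -1.11, -0.91 and -1.70 in d/d, a difference of 1.24. The difference was 1.04 for Vwf and -1.18 for Cd34, both with no overlap between groups, and 0.48 for Icam1, with overlap. These are descriptions within these libraries, with no test.

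**Figure D3:**
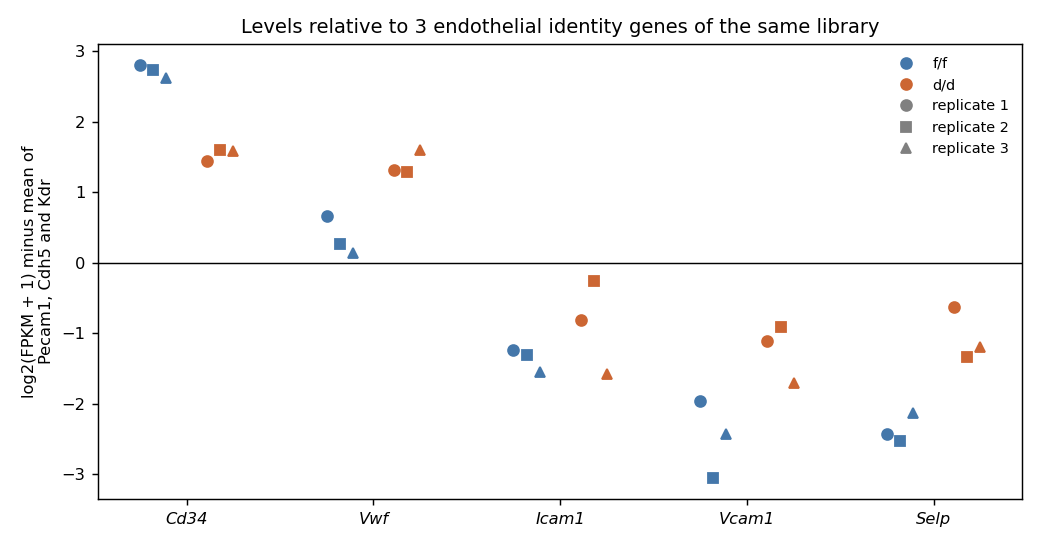
Log2(FPKM + 1) of 5 members minus the mean of Pecam1, Cdh5 and Kdr in the same library (y axis), with colours for the group and symbols for the replicate number. Vwf, Selp and Vcam1 sit higher and Cd34 lower in every d/d library, while Icam1 of d/d replicate 3 (-1.58) lies below the f/f values.

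The capitals in the promoters below mark matches to NF-kappaB type motifs, shown because NF-kappaB drives adhesion genes on activated endothelium. The 250 bases upstream of the start were read 5′ to 3′ on the gene's strand from RefSeq (GRCm38.p6), whose table held 6 of the 10 members. Both strands were searched for GGNNNTTCC and for a looser form, GGG and CC with any 5 bases between them. The 2 motifs can overlap, so a run of capitals may hold both.
Selp, chr1:164115014-164115263, plus strand: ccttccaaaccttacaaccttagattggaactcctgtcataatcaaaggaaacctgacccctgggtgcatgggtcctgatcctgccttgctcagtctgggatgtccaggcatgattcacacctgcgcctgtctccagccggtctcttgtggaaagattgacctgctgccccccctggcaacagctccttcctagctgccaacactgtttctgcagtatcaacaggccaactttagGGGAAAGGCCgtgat
Icam1, chr9:21015690-21015939, plus strand: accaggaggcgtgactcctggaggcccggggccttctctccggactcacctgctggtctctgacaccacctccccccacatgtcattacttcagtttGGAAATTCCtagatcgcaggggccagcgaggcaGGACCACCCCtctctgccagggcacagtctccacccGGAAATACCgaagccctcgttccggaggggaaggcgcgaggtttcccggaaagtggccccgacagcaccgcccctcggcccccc
Sele, chr1:164047984-164048233, plus strand: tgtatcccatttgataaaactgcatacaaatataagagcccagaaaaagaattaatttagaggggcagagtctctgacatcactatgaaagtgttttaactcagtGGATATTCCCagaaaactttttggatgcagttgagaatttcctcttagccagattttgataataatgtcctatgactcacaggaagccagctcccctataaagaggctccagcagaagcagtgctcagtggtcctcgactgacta
Madcam1, chr10:79664309-79664558, plus strand: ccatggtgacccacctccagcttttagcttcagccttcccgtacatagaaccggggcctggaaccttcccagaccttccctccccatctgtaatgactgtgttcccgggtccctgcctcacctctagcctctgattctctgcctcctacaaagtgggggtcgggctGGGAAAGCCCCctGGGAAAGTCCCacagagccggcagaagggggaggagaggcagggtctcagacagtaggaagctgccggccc

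GGNNNTTCC was matched in 4 of the 6 promoters (Selp, Icam1, Sele and Madcam1), and in 15.7% of the 32544 promoters of the table. The looser form was matched in 6 of 6, Cd34 and Kdr included, and in 46% of all promoters. The ETS core GGAAG was in 6 of 6 and in 64.1% of all, and TATAAA was in Sele alone and in 12.3% of all. Genes with the strict match thus include Selp, which rose, Icam1, which did not pass, and Sele and Madcam1, which were barely detected. A match is a description of the letters and not a site.

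Of 20 further pan-endothelial genes 1 rose and 0 fell, a share of risers close to the 6.04% over all features. Of these genes 15 had a log2 change above 0, and the median was 0.16, against -0.01 over all features. Leaving out f/f replicates 1 or 2 gave 0.05 and 0.09, and leaving out d/d replicates 1 or 2 gave 0.02 and 0.24. The riser was Fli1, an ETS transcription factor gene that leukocytes also express, at 4.98 ± 0.502 FPKM in f/f, against 7.84 ± 0.890 in d/d (n = 3 each, SD; limma adjusted p = 0.0491). Its call was lost without any single library, from 0.0505 without f/f replicate 1 to 0.161 without f/f replicate 2. Without the 2 libraries numbered 1 the median of these genes was -0.13, and 0 rose and 1 fell.

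Of 12 arterial, capillary and venous genes 2 rose and 0 fell, with a median of 0.19 (0.10, 0.30 and 0.08 without d/d replicates 1, 2 and 3). Sox7, a transcription factor gene of early and arterial endothelium, went from 12.7 ± 3.88 to 39.8 ± 4.66 FPKM (n = 3 each, SD; limma adjusted p = 0.00968) and lost the call only without f/f replicate 2 (0.0507) among single libraries. Efnb2, the arterial ephrin, went from 22.9 ± 1.40 to 35.5 ± 3.70 FPKM (n = 3 each, SD; limma adjusted p = 0.0224). The call stayed where f/f replicate 1 (0.0411) or replicate 2 of d/d (0.0429) was left out. Efnb2 lost it without f/f replicates 2 or 3 (0.0853 and 0.0668) or d/d replicates 1 or 3 (0.0650 and 0.0723). Ackr1, a chemokine-binding receptor of venules where Selp is also at home, was at 3.79 ± 0.479 and 7.52 ± 2.38 FPKM (n = 3 each, SD) without passing (limma adjusted p = 0.0648).

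Of 5 lymphatic endothelial genes above the filter, 0 rose and 1 fell. Lyve1, a hyaluronan receptor of lymphatic endothelium and of some macrophages, went from 13.6 ± 2.06 to 6.38 ± 1.84 FPKM (n = 3 each, SD; limma adjusted p = 0.0284). It passed where f/f replicate 1 (0.0406) or replicate 2 of d/d (0.0359) was left out. The call was lost without f/f replicates 2 or 3 (0.104 and 0.0954) or d/d replicates 1 or 3 (0.0824 and 0.0831). The list's median was 0.44, above 0 while its only call was a fall. Leaving out f/f replicate 3 gave 0.72, leaving out d/d replicates 1 or 3 gave 0.16 and 0.77, and leaving out the 2 libraries numbered 1 gave 0.01. Without d/d replicate 3, 1 rose and 0 fell. Prox1, the defining lymphatic transcription factor gene, was at 0.363 to 2.15 FPKM over the 6 libraries, and Pdpn was listed at 0 in all 6.

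Of 12 vascular growth factor and receptor genes 0 rose and 0 fell, with a median of 0.13 (0.05 without d/d replicate 1). By the mean over all 6 libraries the most abundant were Vegfa, the ligand of Kdr, at 42.7 ± 3.44 and 59.96 ± 7.31 FPKM (n = 3 each, SD; limma adjusted p = 0.0537), and its co-receptor Nrp1, at 49.2 ± 3.89 and 53.2 ± 11.4 (limma adjusted p = 0.763). Of 12 junction and transmigration genes 0 rose and 0 fell, with a median of -0.19 (-0.10 with f/f replicate 3 left out, -0.30 and -0.12 with d/d replicates 1 or 2 left out). By the mean over all 6 libraries the most abundant were Ctnnb1, the catenin bound by VE-cadherin, at 379 ± 15.8 and 414 ± 48.9 FPKM (n = 3 each, SD), and F11r, a junctional adhesion molecule that epithelium also makes, at 121 ± 12.2 and 166 ± 12.2 FPKM (n = 3 each, SD; limma adjusted p = 0.0528). In f/f alone Jam2 (199.8 FPKM) and Mcam (151 FPKM) lay above F11r. Among single libraries left out, F11r passed only without f/f replicate 1 (0.0362), a fit in which 1 gene of the list rose and 1 fell. With all libraries, 4 of the 12 log2 changes were above 0. Jam2 had a log2 change of -1.19 (limma adjusted p = 0.126) and Jam3 of -0.76 (0.0713).

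No leukocyte partner of the adhesion genes passed with all libraries. Of 7 integrin genes above the filter 0 rose and 0 fell, with a median of 0.61 (0.28 without d/d replicate 2, and 0.33 over 8 genes with no filter). Itgb2, the shared chain of the integrins that bind ICAM-1, was at 5.44 ± 1.27 and 13.2 ± 4.77 FPKM (n = 3 each, SD; limma adjusted p = 0.0592). Its partners Itgam and Itgax had log2 changes of 0.93 and 0.92 (limma adjusted p = 0.0768 and 0.0527). That of Itgal, another partner, was 0.61 (limma adjusted p = 0.296), and its values overlapped between the groups. The values of Itgb2, Itgam and Itgax did not overlap between the groups, as was so, higher in d/d, for 18.1% of all features. These 3 passed without d/d replicate 3 (limma adjusted p = 0.0405, 0.0438 and 0.0482). With any other single library left out none of them passed. The chains that bind VCAM-1 and MAdCAM-1 were nearer to 0, with log2 changes of -0.09 for Itga4, 0.05 for Itgb7 and -0.03 for Itgb1, the most abundant of the list (limma adjusted p = 0.823, 0.955 and 0.897).

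Of 12 genes for selectin ligands and the enzymes that decorate them 0 rose and 0 fell, with a median of 0.20. The most abundant by the mean over all 6 libraries, B4galt1 and Gcnt1, both glycosyltransferase genes, were at 60.1 ± 0.921 and 67.1 ± 10.5 FPKM in f/f, against 57.5 ± 1.68 and 42.6 ± 16.4 in d/d (n = 3 each, SD), where St3gal4 (43.5 FPKM) lay above Gcnt1. Selplg, the main ligand of P-selectin on leukocytes, was at 8.52 ± 1.38 and 19.3 ± 6.50 FPKM (n = 3 each, SD; limma adjusted p = 0.0526). Among single libraries left out, it passed only without d/d replicate 3 (0.0338). Glycam1, which carries L-selectin ligands, was listed at 0 in the 3 f/f libraries and at 1.12, 1.48 and 1.14 FPKM in d/d, below the filter on the mean.

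**Figure D4:**
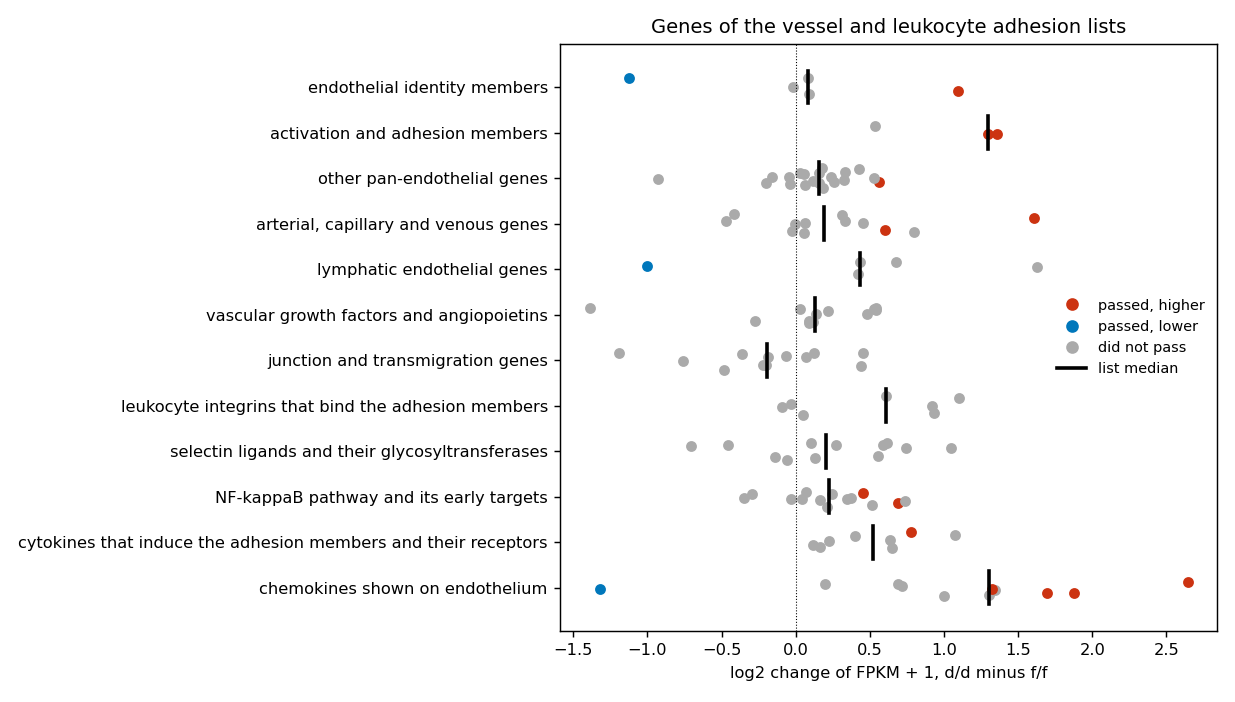
Log2 change of FPKM + 1 (x axis, d/d minus f/f) of each gene above the filter in 12 lists, 1 point per gene spread at random within its row, with colours for the test's call and a black line at the list median. The medians of the endothelial rows lie near 0, at 0.09 to 0.19 outside the lymphatic list. Those of the chemokines (1.30) and of the 3 adhesion members above the filter (1.29) lie farthest to the right. With no filter the median was 1.15 for the chemokines and 0.535 for all 5 adhesion members.

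Signals that switch on the adhesion genes were measured as well. Of 14 genes of the NF-kappaB pathway 2 rose and 0 fell, with a median of 0.23. Rela, a subunit that carries its activation domain, went from 36.95 ± 2.84 to 51.1 ± 4.03 FPKM and Relb, of the alternative pathway, from 10.1 ± 1.40 to 16.9 ± 2.58 (n = 3 each, SD; limma adjusted p = 0.0423 and 0.0405). Both calls were lost without any single library, with adjusted p from 0.0691 to 0.123 for Rela and from 0.0568 to 0.114 for Relb. Of 8 inducing cytokine and receptor genes above the filter 1 rose and 0 fell, with a median of 0.52 (0.23 over 13 genes with no filter). Ifngr1, a chain of the interferon gamma receptor, went from 33.1 ± 2.13 to 57.3 ± 3.60 FPKM (n = 3 each, SD; limma adjusted p = 0.00968) and missed the threshold only without f/f replicate 2 (0.0512) among single libraries. Il1b, which induces Sele, was at 1.49 ± 0.525 and 4.40 ± 2.13 FPKM (n = 3 each, SD; limma adjusted p = 0.0748), Tnf was under 1 FPKM in every library, and Il6 was at 0.644, 2.24 and 2.18 FPKM in f/f, while d/d replicate 2 had 0.302 and the other two d/d libraries were listed at 0.

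Of 11 chemokines that endothelium can present to rolling leukocytes, 4 rose and 1 fell, with a median of 1.30. Ccl2, Cxcl1 and Cxcl9 were under 1 FPKM on the mean in f/f (0.730, 0.884 and 0.435) and met the filter through d/d. With no filter the median was 1.15 over 12 genes. With a mean of at least 5 FPKM required, 3 of 8 rose and 1 fell, with a median of 1.16. Ccl8 went from 25.5 ± 6.19 to 167 ± 50.8 FPKM (n = 3 each, SD; limma adjusted p = 0.00539), Ccl7 from 2.202 ± 1.03 to 10.8 ± 3.78 (0.0147) and Ccl2 from 0.730 ± 0.265 to 4.68 ± 1.41 (0.0128), all monocyte attractants. Cxcl16, a chemokine that is also an adhesion molecule, was the fourth (limma adjusted p = 0.00639), and Cxcl12, made by stroma and endothelium, fell from 179 ± 23.9 to 72.1 ± 19.2 FPKM (n = 3 each, SD; 0.0135). Ccl8 and Cxcl16 kept the call without each single library. Ccl7 lost it where f/f replicate 2 (0.0704) or 3 (0.0594) or replicate 2 of d/d (0.0561) was left out. Ccl2 lost it for either replicate numbered 2 (0.0512 for f/f and 0.0516 for d/d), and Cxcl12 for f/f replicate 2 (0.0640) or 3 (0.0531) or replicate 3 of d/d (0.0559).

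Most leukocyte genes above the filter were higher in d/d on average, as Selp and Vcam1 were. Whether they followed Selp or Vcam1 library by library was not tested. Of 7 macrophage genes 7 rose, with a summed level of 210 to 298 FPKM over the f/f libraries, against 533 to 828 over the d/d ones and none at 0. With either replicate numbered 2 left out 1 of these rose, with f/f replicate 3 left out 2, and with d/d replicate 3 left out or with no filter 4. Of 6 genes common to leukocytes 4 rose, summing to 101 to 159 FPKM over the f/f libraries, against 239 to 371 over the d/d ones, again with none at 0, but 0 rose when f/f replicate 2 or 1 of d/d replicates 1 and 2 was left out, 2 with either replicate numbered 3 left out and 1 with no filter. The neutrophil list summed to 2.36 to 86.8 FPKM over the f/f libraries, against 24.9 to 98.7 over the d/d ones, with Mpo at 0 in all libraries and Csf3r the 1 that rose. Of 5 lymphocyte genes above the filter 1 rose (Cd79b), and the list summed to 9.85 to 13.2 FPKM over the f/f libraries, against 14.6 to 24.3 over the d/d ones. The calls of Csf3r and Cd79b each held without only 1 of the 6 libraries. The part of leukocyte RNA in the members' changes was not tested.

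No gene of the cells around the vessel wall rose beside Vwf. Of 7 pericyte and mural genes 0 rose and 2 fell, Rgs5 and Abcc9, and the list summed to 173 to 215 FPKM over the f/f libraries, against 158 to 206 over the d/d ones. Rgs5 lost its call without any single library, and Abcc9 kept it only where a library numbered 1 was the one left out. Among genes with a mean of at least 5 FPKM, those whose levels over the 6 libraries ran most closely with Cdh5 were Mllt10 (Pearson r = 0.992), Rgs7bp (0.985) and Copg2 (0.984), and with Vcam1 Bst2 (0.988), Narf (0.988) and Ccn2 (0.988). These r values are the highest of 11553 genes over 6 libraries that fall into 2 groups, and are given as a description.

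**Figure D5:**
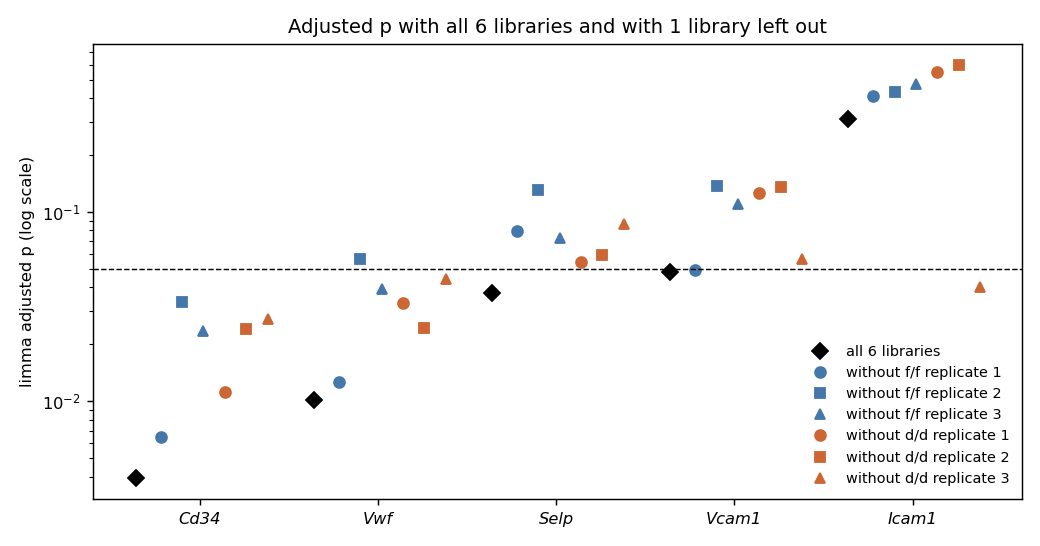
Limma adjusted p (y axis, log scale) of 5 members with all 6 libraries (black) and with each library left out in turn (colours for the group, symbols for the replicate number); the dashed line is 0.05. Cd34 lies below the line throughout and Vwf in all but 1 fit, while Selp crosses it when any library is left out and Icam1 drops below it only without d/d replicate 3.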

How the data were processed

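The deposited values, 1 per Ensembl gene and library, were read as FPKM made by the authors. This unit is an inference from Cufflinks 2.2.1, named with HISAT2 2.2.1 and the builds mm9 and mm10 per the submitters' processing notes, and from library totals that differ. Per the labels' protocols, TRIzol was used for extraction and a TruSeq RNA kit for the libraries. The sources used here give no annotation, filter or strand setting. Without strand, reads of opposite-strand genes cannot be told apart. Such genes overlap exons of Cd34, Selp, Icam1 and Vcam1, at group means of 0.311 FPKM or less. Of 55483 features, 99.38% had their identifier in GENCODE M21 (GRCm38), the source of coordinates. Rows sharing a symbol (114 symbols) were summed, and no 2 libraries were identical.

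Depth was inferred from the most common lowest step, taken as 1 fragment, of FPKM times length less 255 nt, in single-transcript genes over 1500 nt and under 0.1 FPKM. Between 91.6% and 95.2% of 303 to 395 such values per library lay within 1% of it. Intervals from it cover counting only.

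Features with a mean of at least 1 FPKM were compared by limma (version 3.58.1, R 4.3.3) after a log2(FPKM + 1) transform (variance trend, genotype as the only term, two-sided, Benjamini-Hochberg over all features). Log2 changes understate those of low genes, and folds are ratios of mean FPKM. Motif searches and the exact test used Python 3.11.15 and scipy 1.17.1. The fit was tested on simulated data. The members, lists and tests were chosen with earlier results of these data known. The genes named were all members, Mettl3, in each list the 3 largest changes past the threshold or, with none past it, the 2 highest mean levels, and the nearest patterns to Cdh5 and Vcam1. Ackr1, Prox1, Pdpn, Itgb2, Itgam, Itgax, Itga4, Itgb7, Selplg, Glycam1, Il1b, Tnf, Il6, Cxcl16, Cxcl12, Pf4 and the called or absent marker genes were chosen after their values were seen. So were Itgal, Cxcl1, Cxcl9, Jam2 and Jam3.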

Additional observations from a re-analysis of the deposited data

How the results depend on the processing

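Cd34 kept its fall under all 15 alternatives (log2 change -1.22 to -1.08), and Vwf its rise under all but 1. Selp passed in 6 of 15 and Vcam1 in 5 of 15, always with a positive change. The number of members that rose, 3, was 1 with no filter, 1 with the replicate block and 1 without the 2 libraries numbered 1, and ran from 0 to 2 with single libraries left out; 1 fell in each. Over all features, 933 rose and 768 fell. These were 599 and 508 with no filter, where more features are tested, 174 and 102 with the replicate block, and 98 to 926 and 71 to 854 with single libraries left out. Rescaling without mitochondrial and very abundant features gave 724 and 890, with falls outnumbering rises. The cause of the other changes was not tested, though left-out fits and the block have fewer residual degrees of freedom.

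The labels do not say whether same-numbered libraries belong together. Deviations of same-numbered libraries from their group means correlated at -0.22, -0.058 and 0.003. With 3 libraries per group, such values can neither show nor exclude a pairing. With the replicate block Selp had a limma adjusted p of 0.0942 and Vcam1 of 0.0945, and no library correlated best with its own number. Genes that had not passed changed sign as follows. Without the 2 libraries numbered 1, Cdh5 was at -0.05, Kdr at -0.19, Nrp1 at -0.0025, Itgb7 at -0.08 and Pf4 at -0.08. With quantile normalization Ctnnb1 was at -0.0225. With 1 library, or both numbered 1, left out, Pecam1 ran from -0.14 to 0.0412, Cdh5 from -0.0557 to 0.16, Kdr from -0.19 to 0.19, Nrp1 from -0.0154 to 0.28, Itgb1 from -0.16 to 0.0684, Itga4 from -0.29 to 0.0718, Itgb7 from -0.32 to 0.57 and Pf4 from -0.18 to 0.77. The levels of Selp, Icam1 and Vcam1 relative to Pecam1, Cdh5 and Kdr moved by less than the pooled SD of the 2 groups with all 5 identity genes as the base, with a pseudocount of 0.1 and with any single library left out. Icam1 still ran from 0.17 without d/d replicate 2 to 0.83 without d/d replicate 3. Depth limits Sele and Madcam1, at 31 fragments or fewer.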

Other observations

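Of 7 smooth muscle genes 0 rose and 1 fell (Des, the muscle intermediate filament), and the list summed to 2390 to 5400 FPKM in f/f and 2894 to 4602 in d/d. Of 7 general epithelial genes 2 rose (Epcam and Cdh1, both cell adhesion molecules) and 1 fell (Krt18, a keratin), with sums of 983 to 1246 and 773 to 880 FPKM. Of 6 secretory epithelial genes 2 rose (Sprr2f and Muc1), with sums of 4327 to 5792 and 2787 to 5180 FPKM. Sprr2f was at 0.167, 0.987 and 0.857 FPKM in f/f, against 6.52, 10.4 and 19.1 in d/d. It was thus barely detected in f/f and met the filter on the mean through d/d. With no filter its limma adjusted p was 0.0263. Of 7 genes of multiciliated cells 0 passed, while 7 of 7 log2 changes were below 0 (median -0.87). That median was -0.405 without f/f replicate 1, -0.29 without d/d replicate 1 and 0.17 without both. No gene passed among 5 of the mesothelium, of which the most abundant, Krt19, is also in the epithelial list, or among 5 of red cells (74.4 to 111 and 39.9 to 84.8 FPKM). The calls of Des, Epcam, Krt18, Cdh1 and Muc1 each held in 1 of the 6 fits with a library left out. That of Sprr2f held in 5 of 6 and was lost without f/f replicate 2 (limma adjusted p = 0.0509).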
